A study of Mus musculus with 6 samples.

Results

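The genes described here are 10 that handle reactive oxygen in the cell, namely Sod1, Sod2, Cat, Gpx1, Gpx3, Txnip, Txnrd1, Hmox1, Nqo1 and Gclc. They were chosen by name, as rows of the deposited count table whose gene name equals one of these symbols, and all 10 were found among 22923 genes listed. All 10 also passed the filter on low counts, which kept 14082 genes for the test. RNA was sequenced from isolated pancreatic islets of WT mice and of mice with a global knockout of Ffar2, which encodes the short chain fatty acid receptor FFA2, with 3 libraries per genotype. Each library held islets pooled from 2 male mice on normal chow, aged 10 to 12 weeks by the sample labels (the study's supplement gives an older age). The sample labels call the knockout global. By the study's methods, both genotypes came from heterozygous parents on a C57BL/6J background, and islets were handpicked and left overnight in culture. The question addressed is how islet transcripts differ between the genotypes. Whether the 3 libraries of a genotype were made from different mice is not stated in the sources used here, and each p-value therefore measures the spread between these libraries only, which may be technical.

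Superoxide, formed mainly as a by-product of respiration, is converted to hydrogen peroxide by superoxide dismutases, and peroxide is then removed by catalase, glutathione peroxidases and peroxiredoxins. Glutathione peroxidases and peroxiredoxins take the electrons from glutathione and thioredoxin, which reductases restore at the expense of NADPH. The transcription factor NRF2, held in check by KEAP1, raises many of these genes under oxidative stress. Pancreatic islets are known for low levels of hydrogen peroxide-removing enzymes, catalase above all, compared with liver, and beta cells for a strong rise of Txnip, an inhibitor of thioredoxin, when glucose is high.

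The targeted gene was higher in the libraries labelled Ffar2-/-. Gene counts cannot show whether its transcript was intact and so cannot check the labels, on which alone each direction below rests. Ffar2 was at 34.1, 27.0 and 26.5 CPM (counts scaled to library size, with TMM factors between libraries) in WT replicates 1 to 3 and at 71.8, 43.9 and 46.1 in the libraries labelled Ffar2-/-. Its log2 fold change was 0.89 (SE 0.21, edgeR adjusted p = 0.852). The counts used were 17067263 to 22792367 per library. A list of 31 acinar markers, which mark the exocrine cells around islets, summed to between 14188 and 54936 CPM in WT and reached 15217, 105910 and 341350 in replicates 1 to 3 labelled Ffar2-/-, so that replicate 3 stood apart. The 11 beta cell markers tested summed to between 8576 and 9604 CPM in WT and between 7644 and 9137 CPM in the libraries labelled Ffar2-/-, while Ins1, Ins2, Iapp and Gcg, which the authors' caller skipped, are listed at 0 throughout and could not be used to check the tissue. Summed markers of alpha, delta and PP, ductal, endothelial, stromal and macrophage cells overlapped between the genotypes. In bulk RNA, fewer cells of a type and less RNA per cell cannot be told apart.

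Promoter sequence from RefSeq (GRCm38.p6, the assembly of mm10) was given for 8 of the 10 genes, as 300 bases around a transcription start. Hmox1 and Gclc had none and could not be searched. Known control elements were looked for in these windows, since several of the genes answer to NRF2 and Txnip to glucose. The core of the antioxidant response element, which NRF2 binds, was spelled TGACNNNGC and searched on both strands. It was found at Sod1 and at 1 of the starts of Txnrd1, and in 12.4% of 32851 windows of this length over all genes. The carbohydrate response element, bound by ChREBP and MondoA with their partner MLX, was searched as a pair of CACGTG boxes 5 bases apart and was found in 0 of the 32851 windows. The single E box CACGTG was found in 7.15% of windows and in none of the windows of these 8 genes. A form with a pair of CACGAG boxes at the same distance was added after the Txnip promoter had been read, and Txnip was the 1 window of 32851 that held it. The stretches with these matches are shown, each 5′ to 3′ on the strand of its gene, with the fixed letters of the motif in capitals; at Sod1 and Txnrd1 the match is on the opposite strand.
Txnip, chr3:96557852-96557908, plus strand: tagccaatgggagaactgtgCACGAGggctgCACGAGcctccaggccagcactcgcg
Txnrd1, chr10:82859094-82859142, plus strand: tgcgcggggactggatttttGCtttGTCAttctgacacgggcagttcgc
Sod1, chr16:90220686-90220734, plus strand: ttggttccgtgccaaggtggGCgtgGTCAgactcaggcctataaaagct
A match describes letters only and is neither a binding site nor a cause.

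Levels of different genes can be compared only per length, for which the authors' RPKM, pooled per genotype with no replicate values, were used. In WT islets Gpx3 was the highest of the 10 at 437.6 RPKM, and 132nd of 23178 entries over all genes. Txnip (341 RPKM) and Sod1 (338 RPKM) followed, differing from each other by less than the coefficient of variation of either between WT libraries (18% and 8.63% in CPM). Gpx1 was at 134 RPKM, Txnrd1 at 62.1 and Sod2 at 21.6. Hmox1 (9.74 RPKM) was followed by Gclc (8.50 RPKM), a gap wider than the coefficient of variation of either (9.37% and 5.43%). Nqo1 (3.65 RPKM) and Cat (3.25 RPKM) were lowest and differed by less than theirs (26.8% and 16.7%). The extracellular glutathione peroxidase thus stood above the cellular Gpx1, and catalase was the lowest of the peroxide-removing members. In the libraries labelled Ffar2-/-, the order was the same except that Cat (3.64 RPKM) was above Nqo1 (3.02 RPKM).

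Between the genotypes, 0 of the 10 genes passed an adjusted p of 0.05 in edgeR's quasi-likelihood test, as did 0 of the 14082 genes tested (0%). DESeq2 called 8 genes and limma-voom 0, none of them among the 10. At an unadjusted p under 0.05, 2 of the 10 were counted in edgeR, Hmox1 and Gclc, both higher in the libraries labelled Ffar2-/-, against 4.69% of all genes tested (2.58% higher and 2.12% lower). In log2 fold change, 3 of the 10 lay above 0 and 7 below, with a median of −0.12, where the median over all genes tested was 0.016, with 53.3% above 0 and 46.7% below. The groups did not overlap for 2 genes, Hmox1 (above) and Sod1 (below), where 11.2% of all genes did not overlap (5.36% above and 5.84% below). The 95% intervals of 9 of the 10 lay within 2-fold in either direction, the exception being Cat. The lowest adjusted p was 0.852 and the highest 0.960 (edgeR).

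**Figure D1:**
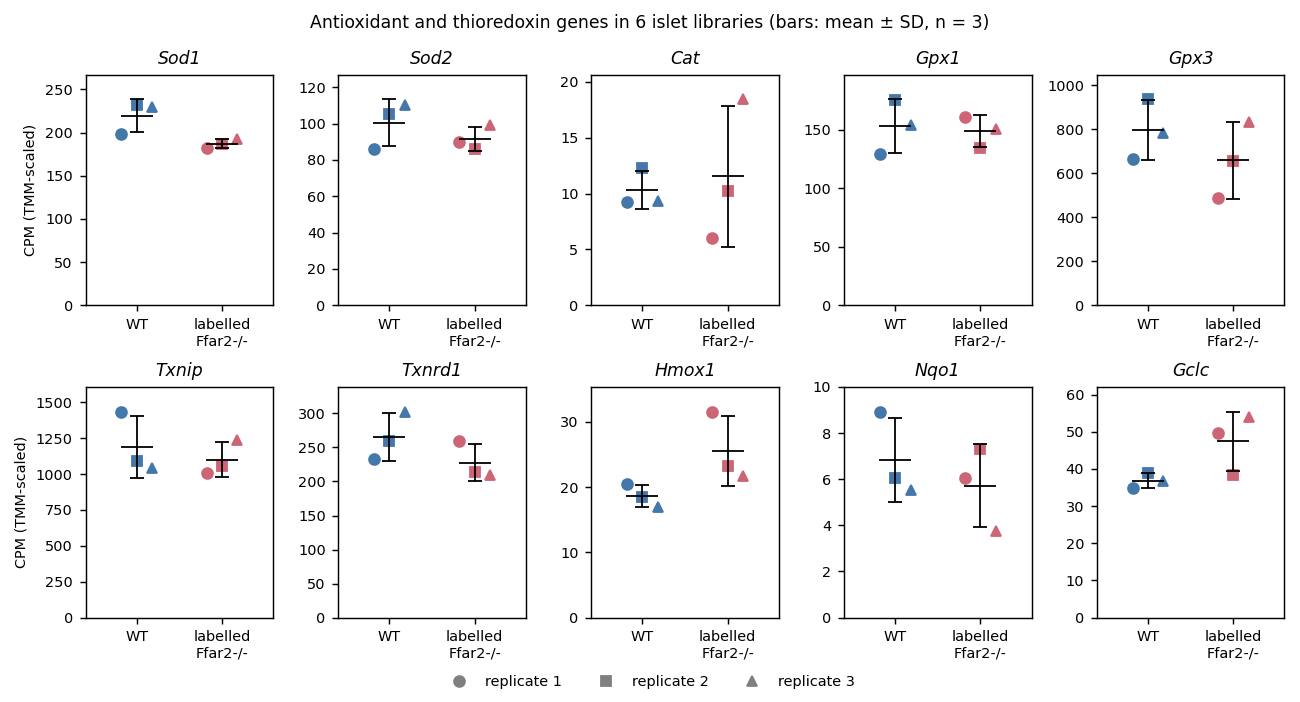
Level of each gene in CPM (TMM-scaled, linear axis from 0) in the 3 WT libraries (blue) and the 3 libraries labelled Ffar2-/- (red); symbols mark the replicate number, the wide bar the mean and the error bar the SD. Hmox1 lies above all WT values in each library labelled Ffar2-/- and Sod1 below, and the other genes overlap.

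Of the superoxide dismutases, Sod1, the copper and zinc enzyme of the cytosol, lies on chromosome 16 of mm10 from 90220742 to 90226324. It was at 198, 232 and 229 CPM in WT replicates 1 to 3 and at 182, 187 and 193 CPM in those labelled Ffar2-/-. All 3 libraries labelled Ffar2-/- were thus below the lowest WT library, and they spread less (coefficient of variation 2.78%) than the WT libraries. The means were 219.7 ± 19.0 and 187 ± 5.20 CPM (SD, n = 3 each). The fitted log2 fold change was −0.23 (standard error, SE, 0.10, 95% interval −0.47 to 0.0074, edgeR adjusted p = 0.852). Sod2, the manganese enzyme of mitochondria on chromosome 17 (13007839 to 13018119), was at 85.8, 105 and 110.3 CPM in WT and at 89.6, 85.8 and 99.0 CPM in the libraries labelled Ffar2-/-. The groups overlapped, with a log2 fold change of −0.14 (SE 0.12, edgeR adjusted p = 0.872). It was −0.24 without WT replicate 1, −0.066 without WT replicate 3 and −0.090 without replicate 2 labelled Ffar2-/-. The ratio of Sod1 to Sod2 counts within a library, which needs no scaling between libraries, was 2.31, 2.20 and 2.08 in WT and 2.03, 2.18 and 1.94 in the libraries labelled Ffar2-/-. The groups overlapped in this balance of both enzymes, with the lowest ratio in replicate 3 labelled Ffar2-/-.

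Among the enzymes that remove peroxide, Cat, which encodes catalase of the peroxisome, lies on chromosome 2 (103453904 to 103485153) and rested on few reads, with 147 to 269 counts in a library. It was at 9.29, 12.3 and 9.34 CPM in WT and at 6.03, 10.2 and 18.4 CPM in replicates 1 to 3 labelled Ffar2-/-. The libraries labelled Ffar2-/- held both the lowest and the highest of the 6 values, so their coefficient of variation (54.6%) was above that of WT (16.7%). The log2 fold change was 0.15 (SE 0.38, 95% interval −0.74 to 1.05, edgeR adjusted p = 0.952), an interval that covers levels of 0.599 to 2.07 times that of WT. Without replicate 3 labelled Ffar2-/- the log2 fold change was −0.36, and with the mean log2 CPM of the acinar markers as a covariate −0.38 (edgeR adjusted p = 0.338). Cat was highest in replicate 3 labelled Ffar2-/-, the library with the most acinar RNA. Over replicates 1 to 3 labelled Ffar2-/-, Cat rose with the acinar markers (15217, 105910 and 341350 CPM). In WT, replicates 1 and 3 had nearly equal Cat at 44856 and 14188 CPM of acinar markers, and replicate 2 the most of both. Replicate 2 labelled Ffar2-/- had more acinar RNA than WT replicate 2 and less Cat. The part of acinar cells in these values was not tested.

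Gpx1, the glutathione peroxidase of cytosol and mitochondria, lies on chromosome 9 (108339080 to 108340344). It was at 129.8, 175.5 and 154 CPM in WT and at 161, 134 and 150.5 CPM in the libraries labelled Ffar2-/-, within the range of WT throughout. Its log2 fold change was −0.044 (SE 0.14, 95% interval −0.37 to 0.28, edgeR adjusted p = 0.960), the smallest in size of the 10. Gpx3, the secreted glutathione peroxidase on chromosome 11 (54902854 to 54910382), was at 664.5, 936 and 783 CPM in WT and at 487, 654 and 833 CPM in the libraries labelled Ffar2-/-. Replicates 1 and 2 labelled Ffar2-/- lay below every WT library and replicate 3 within their range. From replicate 1 to 3 labelled Ffar2-/-, Gpx3 rose in the order of acinar RNA, while in WT the orders differed. The part of acinar cells in this was not tested. The log2 fold change was −0.27 (SE 0.22, edgeR adjusted p = 0.864). It was −0.14 without WT replicate 2, −0.097 without replicate 1 labelled Ffar2-/-, −0.48 without replicate 3, and −0.50 with the acinar covariate (edgeR adjusted p = 0.179), so its size rested on single libraries. The ratio of Gpx1 to Gpx3 counts was 0.331 in replicate 1 labelled Ffar2-/- and lay between 0.181 and 0.205 in the other 5 libraries. One library, low in Gpx3 and not in Gpx1, thus stood apart in the balance of both peroxidases.

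**Figure D2:**
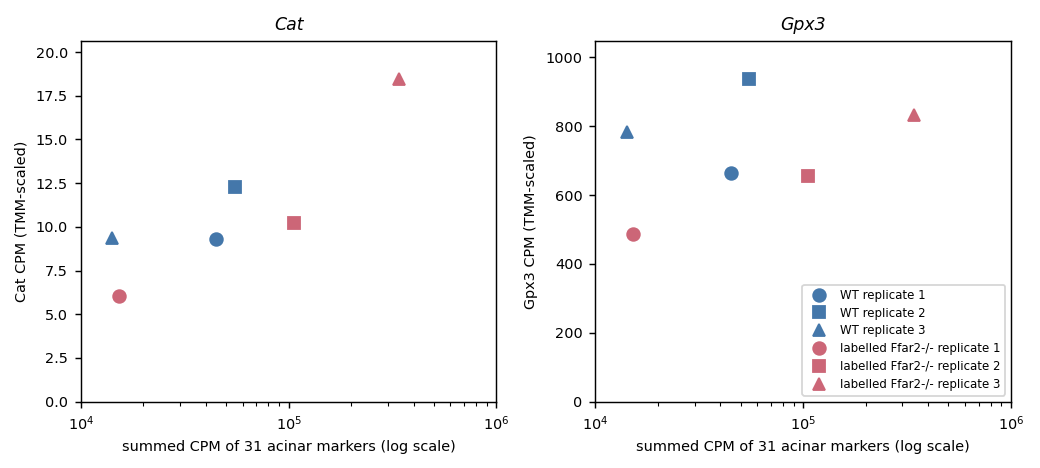
CPM of Cat and Gpx3 (TMM-scaled, linear axis) against the summed CPM of 31 acinar markers (log axis), 1 point per library, with colours for genotype and symbols for replicate number. Replicate 3 labelled Ffar2-/- has the most acinar RNA and the highest Cat (18.4 CPM). Over replicates 1 to 3 labelled Ffar2-/-, acinar RNA, Cat (6.03, 10.2 and 18.4 CPM) and Gpx3 (487, 654 and 833 CPM) all rise. The 2 libraries with the least acinar RNA, WT replicate 3 and replicate 1 labelled Ffar2-/-, differ in Cat (9.34 and 6.03 CPM) and in Gpx3 (783 and 487 CPM).

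In the thioredoxin system, Txnip, which binds and inhibits thioredoxin and is known to promote beta cell death when overexpressed, lies on chromosome 3 (96557957 to 96561857). Its levels were 1436, 1089.9 and 1045 CPM in WT and 1006.5, 1058.5 and 1237 CPM in the libraries labelled Ffar2-/-. WT replicate 1 was the highest of all 6 and the groups overlapped. The log2 fold change was −0.11 (SE 0.17, 95% interval −0.51 to 0.29, edgeR adjusted p = 0.916), an interval that covers levels of 0.701 to 1.22 times that of WT. Without WT replicate 1 the log2 fold change was 0.041. Exons of Txnip share 606 bases with Gm15441 on the opposite strand in GENCODE M21. Whether the authors counted by strand is not given in the sources used here, but Gm15441 held only 19 to 45 counts in a library, against 18058 to 32629 for Txnip.

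Txnrd1, the cytosolic reductase that restores thioredoxin and is itself a target of NRF2, lies on chromosome 10 (82833951 to 82897724). It was at 234, 259.8 and 303 CPM in WT and at 259, 215 and 209 CPM in the libraries labelled Ffar2-/-, with replicates 2 and 3 below every WT library and replicate 1 within WT. The log2 fold change was −0.22 (SE 0.14, edgeR adjusted p = 0.852), and −0.12 without WT replicate 3. The ratio of Txnip to Txnrd1 counts was 6.15, 4.2 and 3.45 in WT and 3.89, 4.93 and 5.92 in the libraries labelled Ffar2-/-, which covers much the same range in both groups. Txn1, which encodes thioredoxin itself, was at 53.2 to 60.7 CPM in WT and 41.4 to 57.0 CPM in the libraries labelled Ffar2-/- (log2 fold change −0.20, SE 0.14, edgeR adjusted p = 0.852). Inhibitor, reductase and thioredoxin thus each had a value below 0, none of which passed the test.

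**Figure D3:**
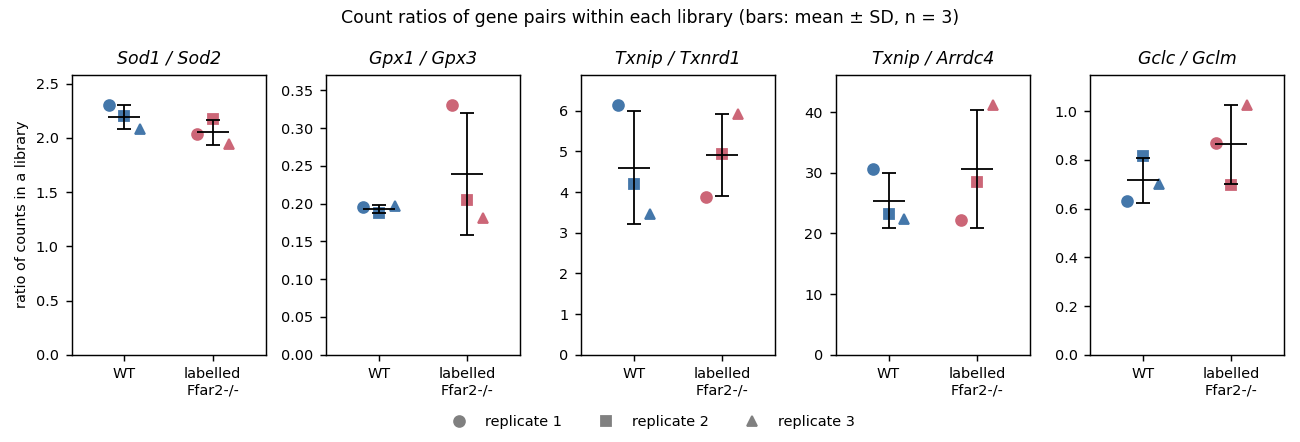
Ratios of counts of 2 genes in the same library (linear axes from 0) for 5 pairs, by genotype (blue WT, red labelled Ffar2-/-), with symbols for the replicate number, the mean as a wide bar and the SD as error bars. The groups overlap for all 5 pairs, and replicate 1 labelled Ffar2-/- stands apart for Gpx1 over Gpx3 (0.331).

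The remaining 3 genes are well-known targets of NRF2. Hmox1, the inducible haem oxygenase that breaks haem down to biliverdin, iron and carbon monoxide, lies on chromosome 8 (75093618 to 75100593) and had 316 to 769 counts in a library. It was at 20.5, 18.4 and 17.0 CPM in WT and at 31.6, 23.2 and 21.7 CPM in replicates 1 to 3 labelled Ffar2-/-. All libraries labelled Ffar2-/- were above the highest WT library, replicate 1 by the widest margin, at 1.69 times the WT mean, against 1.24 and 1.16 times in replicates 2 and 3. The means were 18.6 ± 1.75 and 25.5 ± 5.33 CPM (SD, n = 3 each), and the log2 fold change was 0.45 (SE 0.17, 95% interval 0.063 to 0.84, edgeR adjusted p = 0.852). Without replicate 1 labelled Ffar2-/- it was 0.27, and over all alternatives tried it ran from 0.27 to 0.55, above 0 in each, with adjusted p values of 0.147 to 1.00 (edgeR, DESeq2 and limma-voom). Macrophages express Hmox1 strongly. Their 17 markers tested were all below 0 in log2 fold change, with sums of 193 to 279 CPM in WT and 166 to 209 CPM in the libraries labelled Ffar2-/-, replicate 1 of the latter being the lowest in these markers and the highest in Hmox1. The part of these cells in the result was not tested.

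Gclc, the catalytic subunit of the enzyme that limits glutathione synthesis, lies on chromosome 9 (77754535 to 77794489). It was at 34.9, 38.9 and 36.8 CPM in WT and at 49.7, 38.5 and 54.1 CPM in replicates 1 to 3 labelled Ffar2-/-. Replicates 1 and 3 were above every WT library, while replicate 2 was within the narrow range of WT (coefficient of variation 5.43%). The means were 36.9 ± 2.00 and 47.4 ± 8.04 CPM (SD, n = 3 each), and the fitted log2 fold change was 0.36 (SE 0.14, 95% interval 0.035 to 0.69, edgeR adjusted p = 0.852). In limma-voom with sample weights it was 0.14, and with libraries scaled by their totals alone 0.20. Gclm, the regulatory subunit of the same enzyme, was at 47.8 to 55.2 CPM in WT and 52.8 to 57.1 CPM in the libraries labelled Ffar2-/- (log2 fold change 0.086, SE 0.094, edgeR adjusted p = 0.886). The ratio of Gclc to Gclm counts was 0.632, 0.815 and 0.701 in WT and 0.870, 0.697 and 1.02 in the libraries labelled Ffar2-/-, so that replicates 1 and 3 were above all of WT and replicate 2 was not.

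Nqo1, a quinone reductase on chromosome 8 (107388225 to 107403205), had the fewest reads of the 10, with 55 to 203 counts in a library. It was at 8.94, 6.05 and 5.54 CPM in WT and at 6.07, 7.32 and 3.77 CPM in the libraries labelled Ffar2-/-. WT replicate 1 was the highest and replicate 3 labelled Ffar2-/- the lowest, and the others lay close together. The log2 fold change was −0.25 (SE 0.30, 95% interval −0.96 to 0.45, edgeR adjusted p = 0.889). It was −0.017 without WT replicate 1 and −0.038 without replicate 3 labelled Ffar2-/-, so that its size rested on single libraries. Its sign turned only in limma-voom with sample weights (0.048).

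**Figure D4:**
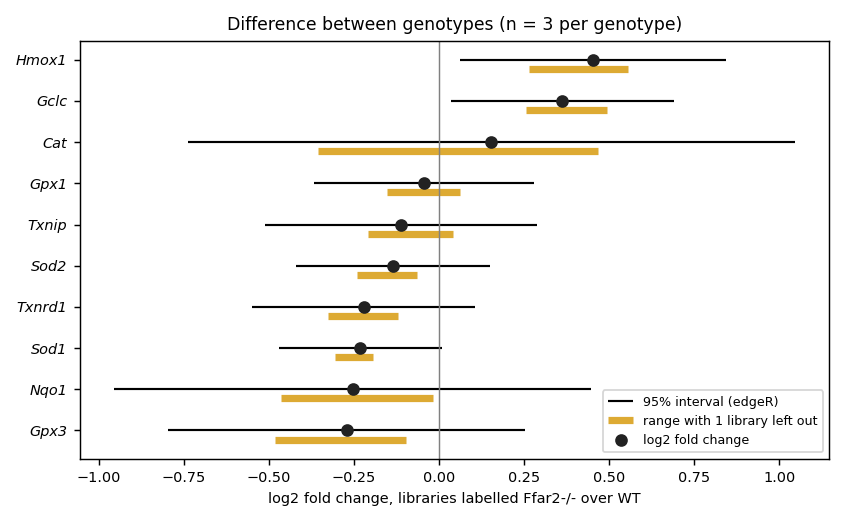
Log2 fold change of each gene between the libraries labelled Ffar2-/- and WT (points), with the 95% interval of edgeR (black lines) and the range of the value when 1 library is left out (yellow bars). Hmox1 (0.45) and Gclc (0.36) lie above 0 with intervals that do not reach it before adjustment over all genes, and Cat has the widest interval.

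The wider pathway was taken as 11 lists of other genes, some of which share members, with 126 genes tested. Of these, 0 passed an adjusted p of 0.05, and 9 (7.14%) had an unadjusted p under 0.05 in edgeR, 1 higher and 8 lower. Over all genes tested the share was 4.69% (2.58% higher and 2.12% lower). For the splits by direction given below, 53.3% of all genes tested lay above 0 and 46.7% below. Of the other peroxide-removing genes, 13 were tested, of which 3 lay above 0 and 10 below (median −0.20). Prdx1, a cytosolic peroxiredoxin and NRF2 target, was the 1 gene of these at an unadjusted p under 0.05, at 203, 227 and 208 CPM in WT and 179, 178 and 181 CPM in the libraries labelled Ffar2-/-. Its groups did not overlap, with a log2 fold change of −0.24 (SE 0.091, edgeR adjusted p = 0.852). Prdx4, the peroxiredoxin of the endoplasmic reticulum, was at 119 CPM in replicate 3 labelled Ffar2-/-, the library rich in acinar RNA, and at 23.5 to 49.7 CPM in the other 5. The part of acinar cells in the Prdx4 values was not tested.

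Of 19 other thioredoxin and glutaredoxin genes, 3 lay above 0 and 16 below (median −0.087). Glrx, a cytosolic glutaredoxin, was at 52.7 to 57.4 CPM in WT and 43.7 to 50.1 CPM in the libraries labelled Ffar2-/-, at a log2 fold change of −0.24 (SE 0.094, edgeR adjusted p = 0.852). Of 21 genes of glutathione synthesis and use, 7 lay above 0 and 14 below (median −0.090), and 3 had an unadjusted p under 0.05. Slc7a11, the cystine importer that feeds glutathione synthesis, was the 1 pathway gene of the 9 that was higher, at 4.62, 4.55 and 2.46 CPM in WT and 5.91, 11.5 and 9.39 CPM in the libraries labelled Ffar2-/-. All 3 of the latter were above WT, replicate 1 by little, with a log2 fold change of 1.2 (SE 0.34, edgeR adjusted p = 0.852). Gstz1 (log2 fold change −0.24) and Glo1 (−0.20), enzymes that use glutathione to break down tyrosine products and methylglyoxal, lay below 0 with groups that did not overlap. Exons of Gstz1 share 465 bases with Pomt2 on the opposite strand, so reads could be shared.

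Among 10 regulators of NRF2, 5 lay above 0 and 5 below, and 0 had an unadjusted p under 0.05. Keap1, the inhibitor of NRF2, was at 81.2 to 85.9 CPM in WT and 87.2 to 95.2 CPM in the libraries labelled Ffar2-/- (log2 fold change 0.13, SE 0.083, edgeR adjusted p = 0.852), but at −0.029 when libraries were scaled by totals alone. Maff, a partner of NRF2 on DNA, had a log2 fold change of −0.46 (SE 0.28) with overlapping groups. The 21 other NRF2 targets tested split into 9 above 0 and 12 below (median −0.020), and of these only Slc7a11 and Prdx1, in opposite directions, had an unadjusted p under 0.05. NRF2 itself, encoded by Nfe2l2, was at 54.5 to 70.0 CPM in WT and 61.7 to 81.4 CPM in the libraries labelled Ffar2-/- (log2 fold change 0.16, SE 0.14, edgeR adjusted p = 0.871).

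For the glucose-responsive genes related to Txnip, 14 were tested, with 5 above 0 and 9 below (median −0.083). Arrdc4, an arrestin domain protein raised by the same glucose-sensing factors, was at 46.9, 46.8 and 46.8 CPM in WT and at 45.4, 37.2 and 30.0 CPM in replicates 1 to 3 labelled Ffar2-/-. All 3 were below the very narrow range of WT, replicate 1 by little, and the log2 fold change was −0.32 (SE 0.15, edgeR adjusted p = 0.852). It was −0.18 without replicate 3 labelled Ffar2-/- and −0.48 without replicate 1. Its ratio to Txnip did not separate the groups, since Txnip counts were 22.3 to 30.6 times those of Arrdc4 in WT and 22.2, 28.5 and 41.2 times in the libraries labelled Ffar2-/-. Gpd1, a glycerol phosphate dehydrogenase, was the 1 gene of this list at an unadjusted p under 0.05 (log2 fold change −0.38, SE 0.16). The arrestin relatives of Txnip, 6 tested, had 2 above 0 and 4 below, among them Arrb2, the adaptor beta-arrestin 2, with −0.18 (SE 0.10).

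Around Hmox1, 11 genes of haem and iron were tested, 4 above 0 and 7 below, with 0 at an unadjusted p under 0.05. Slc11a2, an importer of iron, had a log2 fold change of 0.34 (SE 0.17) and, like Hmox1, its highest value in replicate 1 labelled Ffar2-/- (81.8 CPM, against 46.2 to 57.1 in WT). Without that library the value was 0.14. Its exons share 402 bases with Gm5475 on the opposite strand. Blvrb, a biliverdin reductase, had one of 0.27 (SE 0.19). Of 10 sources of reactive oxygen, Ncf4, a subunit of the phagocyte NADPH oxidase, was at 0.176 to 0.411 CPM in the libraries labelled Ffar2-/- (log2 fold change −1.26, SE 0.44, edgeR adjusted p = 0.852), against 0.578 to 0.704 CPM in WT. It was thus under 1 CPM in every library, and the macrophage markers lay below 0 as well, whose part in this was not tested. Of 12 genes of selenoproteins and their synthesis, the family to which glutathione peroxidases and thioredoxin reductases belong, 5 lay above 0 and 7 below. For Selm and Selk, selenoproteins of the endoplasmic reticulum, the log2 fold changes were −0.35 (SE 0.11) and −0.32 (SE 0.10), with groups that did not overlap and an adjusted p of 0.852 each (edgeR). Processed pseudogenes of Selk are annotated, so its reads could be shared. Of the 4 metallothionein genes tested, Mt3 had a log2 fold change of −0.31 (SE 0.38) and Mt2 one of 0.18 (SE 0.39), Mt2 being highest in replicate 1 labelled Ffar2-/- (1439.8 CPM, against 550.3 to 966 in WT).

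**Figure D5:**
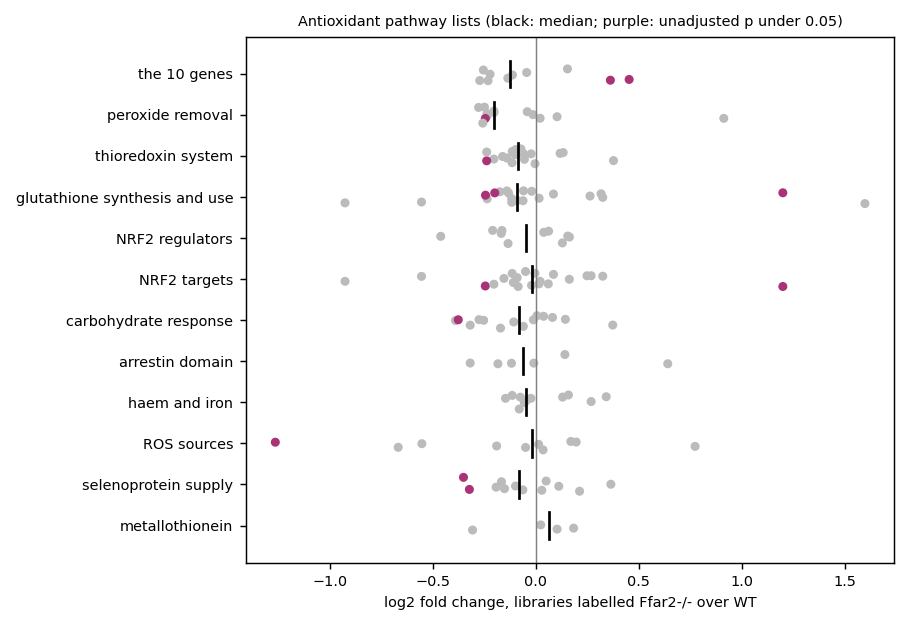
Log2 fold change between the libraries labelled Ffar2-/- and WT of every gene tested in the 10-gene set and in 11 related lists, 1 point per gene, with the median of each list as a black bar and genes at an unadjusted p under 0.05 in purple. The medians lie between −0.20 (peroxide removal) and 0.064 (metallothionein), and 0 genes passed the adjusted threshold.

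By the rule for likeness, genes were ranked by the Pearson correlation of log2 CPM with Hmox1 and Gclc over the 6 libraries. The libraries differ in depth and cell make-up, and all genes of a library share these. Most like Hmox1 were Cdk17 (r = 0.996), Hus1 (r = 0.994) and Mon2 (r = 0.993), each, like Hmox1, highest in replicate 1 labelled Ffar2-/- and lowest in WT replicate 3. A total of 367 of the 14082 genes tested had an r above 0.9 with Hmox1, so this profile over 6 libraries was not particular to Hmox1. Most like Gclc were Fzd4 (r = 0.989), Ighmbp2 (r = 0.988) and Rgs4 (r = 0.983), and 90 genes had an r above 0.9. Rgs4 was at 196 to 231 CPM in WT and at 416, 210.0 and 499 CPM in replicates 1 to 3 labelled Ffar2-/-, high in replicates 1 and 3 and within WT in replicate 2, as Gclc was.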

How the data were processed

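RNA of 6 islet libraries was analysed, 3 per genotype. Per the submitters' processing notes, TopHat2 (2.0.8b) and Cuffdiff (2.1.1) were run on mm10; how reads were counted, strand included, is not given in the sources used here. The authors deposited unnormalized estimated counts for each library, which were not exactly whole for 478 genes and lay more than 0.1 from a whole number for 9. The authors also deposited RPKM pooled per genotype, beside fold changes, test statistics and p-values of their own comparison, which were not used. A total of 158 names with several values and 15 genes that the authors' caller skipped (1.08% to 8.21% of a library's counts) were left out.

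Counts were rounded, filtered with filterByExpr (minimum count 10, minimum total 15), given TMM factors, and compared between genotypes in edgeR 4.0.16 (R 4.3.3; glmQLFit and glmQLFTest, no covariate). P-values are 2-sided, with Benjamini-Hochberg adjustment over all 14082 genes. Log2 CPM used a prior count of 2. The code of the fit was tested on data simulated from its own estimates of spread, without an outlying library. That test cannot show how such a library affects the fit. Alternatives were other scalings and filters, DESeq2 1.42.0, limma-voom (limma 3.58.1), robust fitting, a replicate block, an acinar covariate, left-out genes kept, and each library left out. No libraries of a genotype were alike within sampling noise (lowest chi-square per gene 27.6).

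The members and lists were chosen with earlier results of these data known. Named genes are the 10, Ffar2, list genes at an unadjusted p under 0.05 (or the 2 of lowest p), and the 3 genes most like each of the 2 members of lowest p. Txn1, Gclm, Nfe2l2 and Prdx4 were named after their values were seen. Gene overlaps are from GENCODE M21. Exons of Keap1 (510 bases), Gpd1 (384 bases) and Mt2 (432 bases) also overlap genes on the opposite strand.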

Additional observations from a re-analysis of the deposited data

How the results depend on the processing

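Of the 10 genes, 0 passed an adjusted p of 0.05 under every alternative tried, as did 0 of the 126 pathway genes. Of all genes, 8 passed in DESeq2, 11 with skipped genes kept as listed, 1 without a filter and 1 in limma-voom with sample weights. Some skipped genes are listed at 0 in every library of 1 genotype, such as Chga in WT and Pnlip in the libraries labelled Ffar2-/-. The number with skipped genes kept therefore does not describe expression alone. At an unadjusted p under 0.05, all genes numbered 661, with 2712 under the acinar covariate, 2080 with sample weights and 225 to 1238 with 1 library left out. The 10 genes numbered 2 there (Hmox1 and Gclc), with 1 under scaling by totals alone and 4 under the acinar covariate. They numbered 3 in DESeq2, 3 with sample weights and 0 to 2 with 1 library left out. Which genes were counted also changed. Under scaling by totals alone it was Gpx3, with neither Hmox1 nor Gclc, and without replicate 1 labelled Ffar2-/- it was Txnrd1. The pathway genes numbered 9, with 22 under sample weights, 29 under the acinar covariate and 3 to 16 with 1 library left out. With the replicate block these numbers were 454, 1 and 4. Deviations of same-numbered libraries from the means of their genotypes had correlations of 0.114, −0.138 and −0.344. These lay within the range of differently numbered pairs (−0.499 to 0.591). With so few libraries, they cannot decide whether same-numbered libraries were handled together.

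With 1 library left out, log2 fold changes ran from −0.36 to 0.47 for Cat, −0.15 to 0.061 for Gpx1, −0.21 to 0.041 for Txnip, −0.46 to −0.017 for Nqo1, −0.24 to −0.066 for Sod2, −0.48 to −0.097 for Gpx3, −0.33 to −0.12 for Txnrd1, 0.27 to 0.55 for Hmox1, −0.48 to −0.18 for Arrdc4, 0.14 to 0.45 for Slc11a2, 0.14 to 0.33 for Blvrb, −0.48 to −0.22 for Gpd1, −0.70 to −0.27 for Maff, −0.61 to −0.084 for Mt3 and −0.38 to 0.40 for Mt2. The direction turned for Cat (−0.074 by totals alone, −0.062 in limma-voom, −0.38 with the acinar covariate, −0.36 without replicate 3 labelled Ffar2-/-), Gpx1 (0.061 without WT replicate 2, 0.027 without replicate 2 labelled Ffar2-/-), Txnip (0.041 without WT replicate 1), Nqo1 (0.048 with sample weights), Keap1 (−0.029 by totals alone) and Mt2 (−0.33 with sample weights, −0.013 without WT replicate 1, −0.38 without replicate 1 labelled Ffar2-/-). The cause was not tested. Sod1, Sod2, Gpx3, Txnrd1, Hmox1 and Gclc kept their direction under all 19 alternatives. Scaling by totals alone moved the median log2 fold change of all genes to −0.14, from 0.016. Depth limits Nqo1 and Cat most, at 55 and 147 counts in their lowest libraries.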
